A study of Mus musculus with 6 samples.

Results

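Antigen presentation by the major histocompatibility complex (MHC) was described here through 10 genes chosen by name, out of 39059 genes counted in the series. They were the class I heavy chains H2-K1, H2-D1 and H2-T23, the class I light chain B2m, the peptide transporter and loading genes Tap1, Tap2 and Tapbp, and the class II genes H2-Aa, H2-Ab1 and Cd74. Each was found under 1 Ensembl identifier and each passed the filter on low counts. The RNA came from flow-sorted hind limb satellite cells, which serve skeletal muscle as its stem cells. Lmna HOM, with 3 libraries, is the genotype Lmna Δ8-11 -/-, homozygous for a germline deletion named after exons 8 to 11 of the gene for lamins A and C, and Lmna WT, with 3 libraries, is Lmna Δ8-11 +/+. All mice were on the C57BL/6J background and were taken at postnatal day 19. The deletion is not restricted to muscle or to satellite cells, so cells of every other lineage in the mutants carry it as well. The labels do not tie each library to its own animal, although Y-linked reads, given below, differed among libraries of each genotype. A p-value here reflects the spread among libraries, and how much of that spread is technical is not known.

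Class I molecules sit on nearly all nucleated cells and show peptides from the cell's own proteins to CD8 T cells. Each consists of a heavy chain and beta-2-microglobulin, and is filled in the endoplasmic reticulum with peptides that the proteasome cuts and the TAP transporter imports. Class II molecules are built from an alpha and a beta chain, travel with the invariant chain Cd74 to endosomes, load peptides from engulfed proteins there and show them to CD4 T cells. They are made mainly by B cells, dendritic cells and macrophages, and interferon-gamma can induce both pathways in many other cell types, myogenic cells included.

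Libraries held 7234298 to 9552751 gene reads in Lmna HOM and 6613636 to 8426578 in Lmna WT. Lmna itself was at 436, 375 and 451 CPM (read counts on a common library total after TMM scaling, which matches libraries on the bulk of their genes) in Lmna HOM replicates 1, 2 and 3, against 842, 939 and 1057 CPM in Lmna WT replicates 1, 2 and 3 (log2 fold change -1.17, SE 0.14, edgeR quasi-likelihood adjusted p = 0.0010). Its count covers undeleted exons too, which makes it a partial check of the labels. Pax7, which defines satellite cells, stood at 23.1, 52.4 and 19.5 CPM in Lmna HOM, against 86.9, 66.3 and 74.9 CPM in Lmna WT. Of 11 satellite cell markers, 7 were lower in Lmna HOM and 0 higher, where 11.5% of all genes tested were lower and 9.67% higher. RNA of other cells was abundant in both genotypes, with pericyte and smooth muscle markers summing to 10658 to 11431 CPM in Lmna HOM and 9773 to 13690 CPM in Lmna WT. Markers of fibro-adipogenic progenitors, the connective tissue precursors of muscle, summed to 1481 to 2330 CPM in Lmna HOM and 4572 to 4872 CPM in Lmna WT, with 5 of 8 lower and 1 higher. Adipocyte markers summed to 382 to 718 CPM in Lmna HOM and 181 to 293 CPM in Lmna WT, with 3 of 3 tested higher. The part of these cells in the differences described for the gene lists was not tested. Lmna HOM replicate 2 and Lmna WT replicate 2 stood apart from the others by the abundance of Gm42418, at 13027 and 13900 CPM on unscaled totals, where the other 4 libraries lay between 914 and 1797 CPM. Reads of the Y-linked genes Ddx3y, Eif2s3y, Kdm5d and Uty numbered 1, 4498 and 3 in Lmna HOM replicates 1, 2 and 3. In Lmna WT replicates 1, 2 and 3 they numbered 0, 3074 and 4831. A fit without Lmna HOM replicate 2 therefore also lacks the only Lmna HOM library rich in Y-linked reads.

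Of the 10 members, 8 lie within the MHC region of chromosome 17, between positions 33915899 and 36032855 of GRCm38. From the lower coordinate up they are Tapbp (33915899 to 33929292, plus strand), H2-K1 (33996017 to 34000347, minus), Tap1 (34187553 to 34197225, plus), Tap2 (34203527 to 34216321, plus), H2-Ab1 (34257689 to 34269419, plus), H2-Aa (34282744 to 34287823, minus), H2-D1 (35262730 to 35267499, plus) and H2-T23 (36029773 to 36032855, minus). B2m lies on chromosome 2 (122147686 to 122153083, plus strand), and the place of Cd74 is given with its values. Within the chromosome 17 stretch, 85 other genes were tested, of which 10 were higher and 6 lower in Lmna HOM. Their share called, 18.8%, compared with 21.1% of all 14099 genes tested, and their median log2 fold change was -0.03, compared with -0.0038 over all genes tested.

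Upstream sequences of a classical heavy chain, the light chain and a class II chain are shown because class I and class II genes are known to share promoter elements. These are the X2 and Y boxes of the shared module bound by the RFX, CREB and NF-Y factors, which recruit Nlrc5 or Ciita, and, in class I genes, a kappaB site and an interferon-stimulated response element. RefSeq sequences of build GRCm38.p6 were read for 7 members. RefSeq starts can differ from the ends of the gene spans given above. The 250 bases before the RefSeq start lie inside that span for H2-D1 (35262844 to 35263093) and Tapbp (33919228 to 33919477), and partly so for others, such as H2-T23. The 250 bases before the start of H2-K1 (chr17:34000348-34000597, minus strand), B2m (chr2:122147437-122147686, plus strand) and H2-Aa (chr17:34287824-34288073, minus strand) follow, read 5′ to 3′ in the direction of transcription. Capitals mark matches on either strand to the kappaB site GGGATTCCC, the response element core GAANNGAAA, the X2 core TGACG and the Y box CCAAT.
H2-K1: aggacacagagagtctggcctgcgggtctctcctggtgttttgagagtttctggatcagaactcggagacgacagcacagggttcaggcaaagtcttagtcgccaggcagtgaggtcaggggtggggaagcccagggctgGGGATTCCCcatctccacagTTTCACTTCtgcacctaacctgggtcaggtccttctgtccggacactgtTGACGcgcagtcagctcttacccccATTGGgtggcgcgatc
B2m: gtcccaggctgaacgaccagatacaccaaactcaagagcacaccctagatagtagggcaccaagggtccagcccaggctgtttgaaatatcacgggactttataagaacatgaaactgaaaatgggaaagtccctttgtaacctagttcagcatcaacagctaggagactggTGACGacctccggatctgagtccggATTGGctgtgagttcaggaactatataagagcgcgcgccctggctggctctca
H2-Aa: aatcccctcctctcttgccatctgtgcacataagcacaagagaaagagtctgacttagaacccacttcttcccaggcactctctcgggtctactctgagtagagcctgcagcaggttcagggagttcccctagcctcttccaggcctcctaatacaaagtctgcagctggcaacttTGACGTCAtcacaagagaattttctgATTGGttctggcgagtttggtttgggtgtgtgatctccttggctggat

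In a local alignment of the upstream windows of H2-K1 and H2-D1, the best-matching stretch was 91.0% identical over 177 aligned columns. Both windows held a kappaB site, a response element core, an X2 core and a reversed Y box in that order, with 1 further Y box in H2-D1. The kappaB match began 110 bases before the start of H2-K1 and 170 before that of H2-D1, and it occurs in 0.301% of 32851 RefSeq windows of the same length. The response element core occurs in 6.31%, the X2 core in 17.8% and the Y box in 33.8% of those windows. In H2-K1, H2-D1 and B2m the X2 core stood 25 bases before a reversed Y box (ATTGG), first base to first base, and in H2-Aa 26 bases before it. A pair in that arrangement, 24 to 27 bases apart, a spacing chosen after these matches were seen, occurs in 0.216% of windows. In H2-Aa a match to the X2 core on each strand overlapped to form TGACGTCA. No other matches overlapped. Of the other windows read, that of Tap1 held an X2 core and a Y box, that of Tapbp a pair of Y boxes and that of H2-T23 a Y box. Those of Tap2, H2-Ab1 and Cd74 were not read, so whether they hold these motifs was not tested. A match is a description of these letters only.

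Per length of exon, B2m and then the classical heavy chains stood highest in both genotypes, and the places of the class II genes differed. B2m averaged 305 ± 49.3 RPKM (CPM per kilobase of exon; SD, n = 3) in Lmna HOM and 273 ± 42.1 RPKM in Lmna WT. H2-D1 came next at 94.1 ± 14.99 and 87.1 ± 5.401 RPKM, followed by H2-K1 at 46.8 ± 11.5 and 52.3 ± 6.62 RPKM in Lmna HOM and Lmna WT. Tapbp stood at 13.1 ± 0.602 RPKM in Lmna HOM and 11.7 ± 0.4997 RPKM in Lmna WT. In every library H2-D1 lay above H2-K1 and H2-K1 above Tapbp. H2-T23, Tap2 and Tap1 lay lower, at 9.29 ± 1.29, 6.23 ± 0.439 and 3.84 ± 0.613 RPKM in Lmna HOM and at 6.81 ± 1.74, 5.54 ± 0.741 and 2.76 ± 0.524 RPKM in Lmna WT. Among these, H2-T23 and Tap2 overlapped in Lmna WT. In Lmna HOM Cd74, H2-Aa and H2-Ab1 were at 1.90 ± 2.24, 0.555 ± 0.560 and 0.401 ± 0.511 RPKM, and in Lmna WT at 9.44 ± 7.04, 2.96 ± 3.05 and 3.15 ± 2.31 RPKM. By their means the class II genes were the lowest members in Lmna HOM, whereas in Lmna WT Cd74 lay above H2-T23, and Tap1 was the lowest of all. Among the 3, Cd74 was the highest in all 6 libraries, and H2-Aa lay above H2-Ab1 in every Lmna HOM library.

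The class I members did not pass the test between genotypes. Of all 14099 genes tested with edgeR's quasi-likelihood test, 9.67% were called higher and 11.5% lower in Lmna HOM, at a Benjamini-Hochberg adjusted p under 0.05. Of the 7 class I members, 0 were called by this test. An unadjusted p under 0.05 was reached by 2 of them, Tap1 and H2-T23, and by 5056 of all 14099 genes tested. Of the 3 class II members, 1 was called lower, H2-Ab1. The median log2 fold change of the 10 members was 0.14, with 6 values above 0 and 4 below, compared with -0.0038 over all genes tested.

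H2-K1, which encodes the classical heavy chain H-2K, was at 112, 124 and 176 CPM in Lmna HOM, against 155, 134 and 173 CPM in Lmna WT. Both the lowest and the highest library were Lmna HOM, so the groups overlapped. Its log2 fold change was -0.16 (SE 0.17, 95% interval -0.55 to 0.22, edgeR adjusted p = 0.532), an interval of 0.685 to 1.17-fold. H2-D1, the other classical heavy chain of this strain, was at 210, 232 and 286 CPM in Lmna HOM, against 232, 209 and 233 CPM in Lmna WT. Lmna HOM replicate 3 was the highest and the remaining 5 libraries overlapped, with a log2 fold change of 0.11 (SE 0.14, interval -0.20 to 0.42, adjusted p = 0.595) that turned to -0.018 without that library. The ratio of H2-D1 to H2-K1 CPM was 1.88, 1.87 and 1.62 in Lmna HOM and 1.4996, 1.56 and 1.35 in Lmna WT, so the groups did not overlap in it. An exact two-sided permutation test of the log2 ratio gave p = 0.10, the smallest that 3 libraries a group allow.

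B2m, the light chain of all class I molecules, was at 291, 214 and 283 CPM in Lmna HOM, against 217, 211 and 276 CPM in Lmna WT. Lmna HOM replicate 2 lay with Lmna WT replicates 1 and 2, and Lmna WT replicate 3 near the remaining Lmna HOM libraries, so the groups overlapped (log2 fold change 0.16, SE 0.16, interval -0.19 to 0.51, adjusted p = 0.493). Among the 9042 genes that averaged 10 CPM or more, the 5 whose log2 CPM followed B2m most closely over the 6 libraries were Caprin2, Katnbl1, Erc1, Naa15 and Tmed5, with Pearson's r of 0.975 to 0.994. These correlations share libraries and depth and are given as a description.

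H2-T23 encodes Qa-1, a nonclassical heavy chain that presents leader peptides of other class I chains to NK cell receptors. It was at 22.5, 29.2 and 28.8 CPM in Lmna HOM, against 24.3, 14.3 and 20.4 CPM in Lmna WT. Lmna HOM replicates 2 and 3 were the highest, and the groups overlapped through Lmna HOM replicate 1 and Lmna WT replicate 1 (log2 fold change 0.44, SE 0.20, interval 0.0050 to 0.87, adjusted p = 0.135). The log2 fold change was 0.26 without Lmna WT replicate 2 and 0.19 without both libraries high in Gm42418.

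Tap1, a subunit of the peptide transporter, was at 23.8, 17.3 and 21.99 CPM in Lmna HOM, against 15.5, 12.1 and 17.8 CPM in Lmna WT. Only the lowest Lmna HOM and the highest Lmna WT library overlapped, and the log2 fold change was 0.46 (SE 0.19, interval 0.052 to 0.88, adjusted p = 0.0999). Without Lmna HOM replicate 2, Tap1 passed the test (log2 fold change 0.59, adjusted p = 0.0342). Tap2, the other transporter subunit, was at 23.5, 21.9 and 25.3 CPM in Lmna HOM, against 20.7, 18.3 and 23.9 CPM in Lmna WT, and overlapped between them (log2 fold change 0.17, SE 0.15, adjusted p = 0.445). Tapbp encodes tapasin, which bridges TAP and empty class I molecules and edits their peptides. It was at 50.1, 45.8 and 47.1 CPM in Lmna HOM, against 40.4, 43.7 and 43.3 CPM in Lmna WT, the sole member whose groups did not overlap. Values did not overlap for 40.7% of all genes tested, 20.2% with Lmna HOM higher and 20.6% with Lmna HOM lower, and Tapbp did not pass the test (log2 fold change 0.17, SE 0.11, interval -0.077 to 0.41, adjusted p = 0.302).

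**Figure D1:**
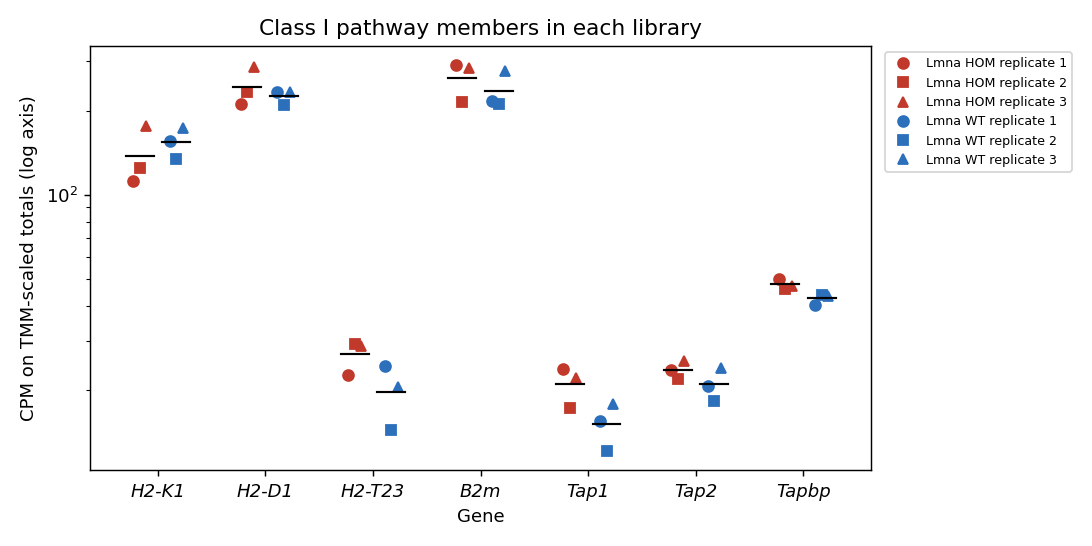
CPM on TMM-scaled totals (log axis) of the 7 class I members, with 1 point per library, Lmna HOM left of Lmna WT, marker shapes for replicates and a black line at the mean of 3 libraries. The genotypes overlap for each gene but Tapbp, whose lowest Lmna HOM library, at 45.8 CPM, lies above the highest Lmna WT library, at 43.7 CPM.

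Exons of Tapbp overlap those of Gm19412 on the opposite strand over 24.9% of their length, and exons of Tap2 overlap those of Gm15821 over 14.1%. Whether counting used strand is not stated by the labels, and without it reads of these genes cannot be told from those of their antisense partners. Heavy chain genes resemble each other: of all 50-base stretches in annotated transcripts, 9.63% in H2-K1, 12.8% in H2-D1 and 14.5% in H2-T23 also occurred in another gene, as did 0.957%, 3.59% and 3.15% of 100-base stretches. For B2m, H2-Ab1 and Cd74 the share was 0% at both lengths.

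The class II members were low and varied many-fold between libraries of 1 genotype. H2-Ab1, the beta chain of I-A, had 2, 24 and 2 reads in Lmna HOM replicates 1, 2 and 3, against 66, 15 and 112 reads in Lmna WT replicates 1, 2 and 3. On the CPM scale these were 0.280, 2.54 and 0.262 in Lmna HOM, against 7.64, 2.38 and 14.2 in Lmna WT. Lmna HOM replicate 2 lay just above Lmna WT replicate 2, so the groups overlapped, while the other Lmna HOM libraries lay below all Lmna WT libraries. H2-Ab1 was called lower, at -2.86 on the log2 scale (SE 0.75, interval -4.52 to -1.20, edgeR adjusted p = 0.0236). The call was lost without Lmna HOM replicate 1 (-2.45, adjusted p = 0.0769), Lmna HOM replicate 3 (-2.42, 0.0716), Lmna WT replicate 1 (-2.92, 0.0591) or Lmna WT replicate 3 (-2.20, 0.0939), and with the DESeq2 Wald test (-2.96, 0.0602). Without both libraries high in Gm42418 the log2 fold change was -5.25 (adjusted p = 7.1e-06), without Lmna HOM replicate 2 alone -4.84 (adjusted p = 0.0012) and without Lmna WT replicate 2 alone -3.26 (adjusted p = 0.0186).

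H2-Aa, the alpha chain of I-A, had 7, 43 and 6 reads in Lmna HOM, against 64, 13 and 191 reads in Lmna WT, or 0.979, 4.56 and 0.785 CPM against 7.41, 2.07 and 24.3 CPM. Lmna HOM replicate 2 again exceeded Lmna WT replicate 2, by a wider margin than for H2-Ab1. The log2 fold change was -2.35 (SE 0.80, interval -4.13 to -0.56) and did not pass after adjustment (adjusted p = 0.0624). It passed without Lmna HOM replicate 2 (-3.67, adjusted p = 0.0096), without Lmna WT replicate 2 (-2.81, adjusted p = 0.0308) and without both (-4.14, adjusted p = 0.00013). It was -1.14 without Lmna WT replicate 3 (adjusted p = 0.307), -2.02 without Lmna HOM replicate 1 (0.176), -1.96 without Lmna HOM replicate 3 (0.163) and -2.59 without Lmna WT replicate 1 (0.0899).

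Cd74 (chromosome 18, 60803848 to 60812652, plus strand), the invariant chain that escorts class II molecules and blocks their groove, had 6, 71 and 9 reads in Lmna HOM, against 147, 22 and 213 reads in Lmna WT. On the CPM scale these were 0.839, 7.53 and 1.18 in Lmna HOM, against 17.01, 3.50 and 27.05 in Lmna WT. The pattern was that of H2-Aa, with the replicates numbered 2 in reverse order of the genotype means (log2 fold change -2.25, SE 0.76, interval -3.93 to -0.57, adjusted p = 0.0592). Cd74 passed without Lmna HOM replicate 2 (-3.97, adjusted p = 0.0023), without Lmna WT replicate 2 (-2.70, adjusted p = 0.0304) and without both (-4.42, adjusted p = 1.1e-06). It was -1.65 without Lmna WT replicate 3 (adjusted p = 0.199), -1.83 without Lmna HOM replicate 1 (0.162), -1.86 without Lmna HOM replicate 3 (0.155) and -2.21 without Lmna WT replicate 1 (0.132). Among the class II reads of a library, Cd74 made up 40.0, 51.4 and 52.9% in Lmna HOM and 53.1, 44.0 and 41.3% in Lmna WT, although the reads behind these shares numbered 15, 138 and 17 in Lmna HOM and 277, 50 and 516 in Lmna WT.

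**Figure D2:**
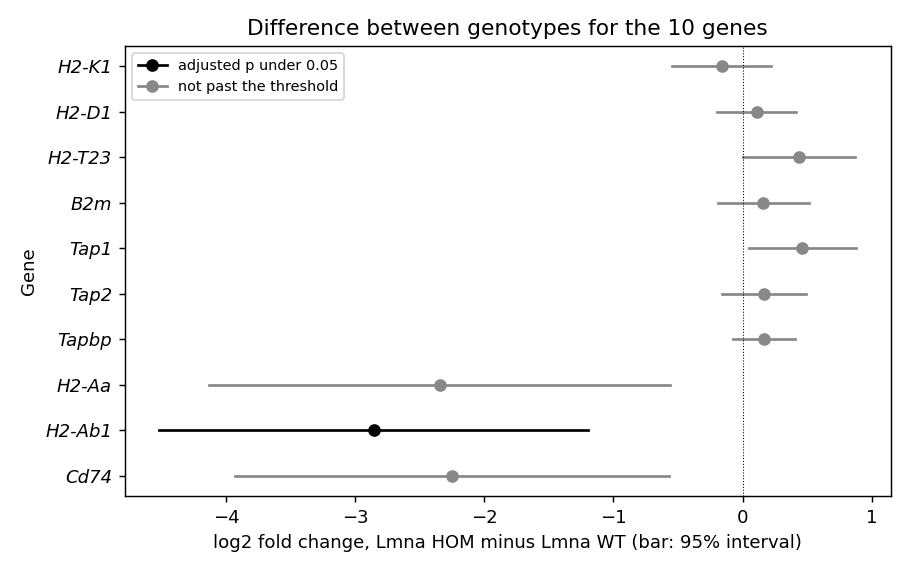
Log2 fold change of Lmna HOM minus Lmna WT for the 10 genes, with bars for the unadjusted 95% interval of the edgeR fit. The class I members lie between -0.16 and 0.46, and the class II members between -2.86 and -2.25 with far wider intervals, of which H2-Ab1 alone passes the adjusted threshold.

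Other class II genes had the same low levels. From a list of 7 further class II chains and peptide editors, 3 were tested, with a median log2 fold change of -1.68. Of these, 1 was lower and 0 higher, where 11.5% of all genes tested were lower and 9.67% higher. H2-DMb1, a chain of the editor that removes the invariant chain fragment, had 2, 6 and 4 reads in Lmna HOM, against 16, 9 and 12 reads in Lmna WT. Its groups did not overlap, as for 40.7% of all genes tested (log2 fold change -1.68, SE 0.43, adjusted p = 0.0223). The call of H2-DMb1 was kept when Lmna HOM replicate 2 was left out and lost when any other library was (adjusted p = 0.0508 to 0.0971). Since 22.7% of its 50-base stretches also occur in H2-DMb2, its count is uncertain. H2-Eb1, the beta chain of I-E, which is not assembled in C57BL/6 mice for want of its alpha chain, had 3, 25 and 5 reads in Lmna HOM, against 55, 11 and 36 reads in Lmna WT, and did not pass (adjusted p = 0.0704). H2-DMa, the partner chain of H2-DMb1, did not pass either (log2 fold change -1.13, SE 0.39, adjusted p = 0.0619). Leaving out 1 library gave 0 to 4 lower genes in this list.

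**Figure D3:**
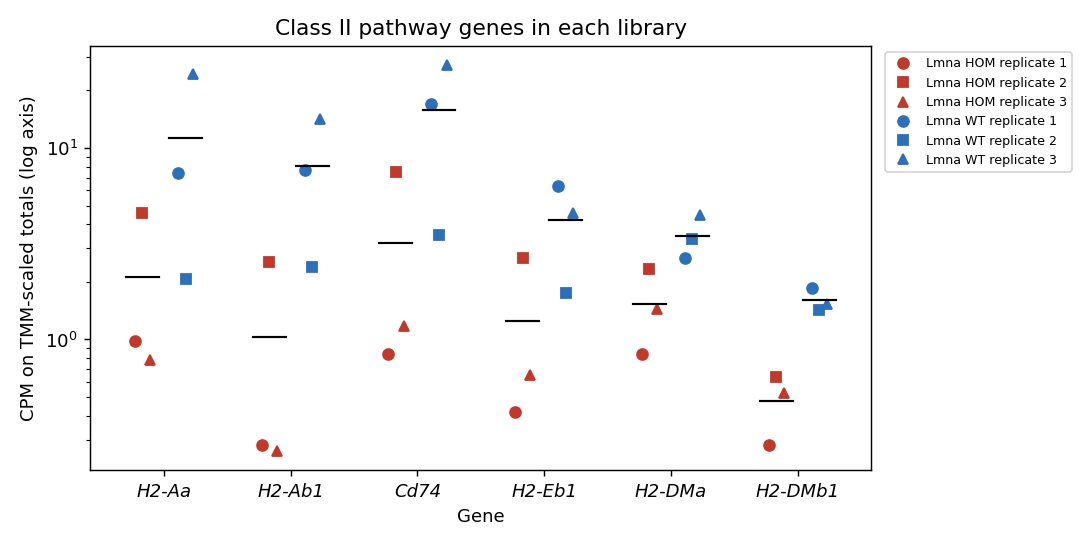
CPM on TMM-scaled totals (log axis) of the 3 class II members and 3 further class II genes, with 1 point per library, Lmna HOM left of Lmna WT, marker shapes for replicates and a black line at the mean of 3 libraries. Lmna HOM replicate 2 lies above Lmna WT replicate 2 for H2-Aa, H2-Ab1, Cd74 and H2-Eb1. The genotypes do not overlap for H2-DMa and H2-DMb1, as for 40.7% of all genes tested.

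Among markers of the cells that normally make class II molecules, the summed B cell markers ranked the libraries much as the class II members did. Summed over H2-Aa, H2-Ab1 and Cd74, the libraries held 2.10, 14.6 and 2.23 CPM in Lmna HOM, against 32.1, 7.95 and 65.5 CPM in Lmna WT. B cell markers, 6 genes none of which was abundant enough to be tested, summed to 1.40, 4.67 and 1.05 CPM in Lmna HOM, against 9.37, 4.61 and 23.2 CPM in Lmna WT. Both sums fell in the order Lmna WT replicate 3, Lmna WT replicate 1, Lmna HOM replicate 2 and Lmna WT replicate 2, with the remaining Lmna HOM libraries lowest. Cd79b and Ms4a1 had 0 reads in Lmna HOM replicate 1. In Lmna HOM replicate 3, 3 of the 6 markers had 0 reads, Ms4a1 and Pax5 among them, while Cd79a had reads in all 6 libraries. T and NK cell markers, 8 genes, none tested, ranged from 0.140 to 2.86 CPM in Lmna HOM and from 1.59 to 4.06 CPM in Lmna WT. Haemoglobin genes, RNA of red cells, ranged from 211 to 854 CPM in Lmna HOM and from 866 to 1530 CPM in Lmna WT. T and NK cell markers and haemoglobins were likewise highest in Lmna WT replicate 3. The part of these cells in the class II values was not tested. In such bulk libraries, fewer cells of a type and less RNA per cell cannot be told apart.

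Macrophage markers differed among themselves. Their sum over 13 genes ranged from 46.7 to 80.6 CPM in Lmna HOM and from 43.6 to 73.0 CPM in Lmna WT, with Lmna HOM replicate 3 the highest, a library with 17 class II reads. Of the 10 macrophage markers tested, 2, Cd68 and Cd14, were higher and 0 lower, where 9.67% of all genes tested were higher and 11.5% lower. Of the same 10, 6 had log2 fold changes below 0 and the median was -0.29. Lyz2, Cd68 and Cd14 carried a large part of the sum, though not most of it in Lmna WT replicate 1. Mrc1 was at 2.52, 5.94 and 2.49 CPM in Lmna HOM, against 9.03, 5.09 and 8.13 CPM in Lmna WT (log2 fold change -1.0019, adjusted p = 0.0742). Ptprc, made by all white blood cells, was at 1.82, 9.22 and 4.58 CPM in Lmna HOM, against 10.6, 2.54 and 15.6 CPM in Lmna WT (log2 fold change -0.87, adjusted p = 0.3203). For both genes Lmna WT replicates 1 and 3 were the highest and Lmna HOM replicate 2 came next, as for the class II members. Other macrophage markers were ordered otherwise. C1qa was highest in Lmna HOM replicate 2, at 2.44 CPM, and Csf1r stood at 4.35 CPM in that library, against 2.92 CPM in Lmna WT replicate 3. Dendritic cell markers summed to 24.3 to 27.8 CPM in Lmna HOM and 20.03 to 29.5 CPM in Lmna WT, but Zbtb46 made up most of this sum, and 5 of the 7 markers were too low to test. Of the 2 tested, 0 were called, with 1 above 0 on the log2 scale and 1, Ccr7, below 0. Ccr7, a chemokine receptor of mature dendritic cells and of lymphocytes, was at 0.140, 2.44 and 0.393 CPM in Lmna HOM, against 4.398, 0.636 and 5.97 CPM in Lmna WT (log2 fold change -1.80, adjusted p = 0.136), with its libraries in the order of the class II sum. Endothelial markers, from a cell type that makes class I molecules, summed to 374 to 710 CPM in Lmna HOM and 460 to 749 CPM in Lmna WT, with 0 of 9 genes called.

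**Figure D4:**
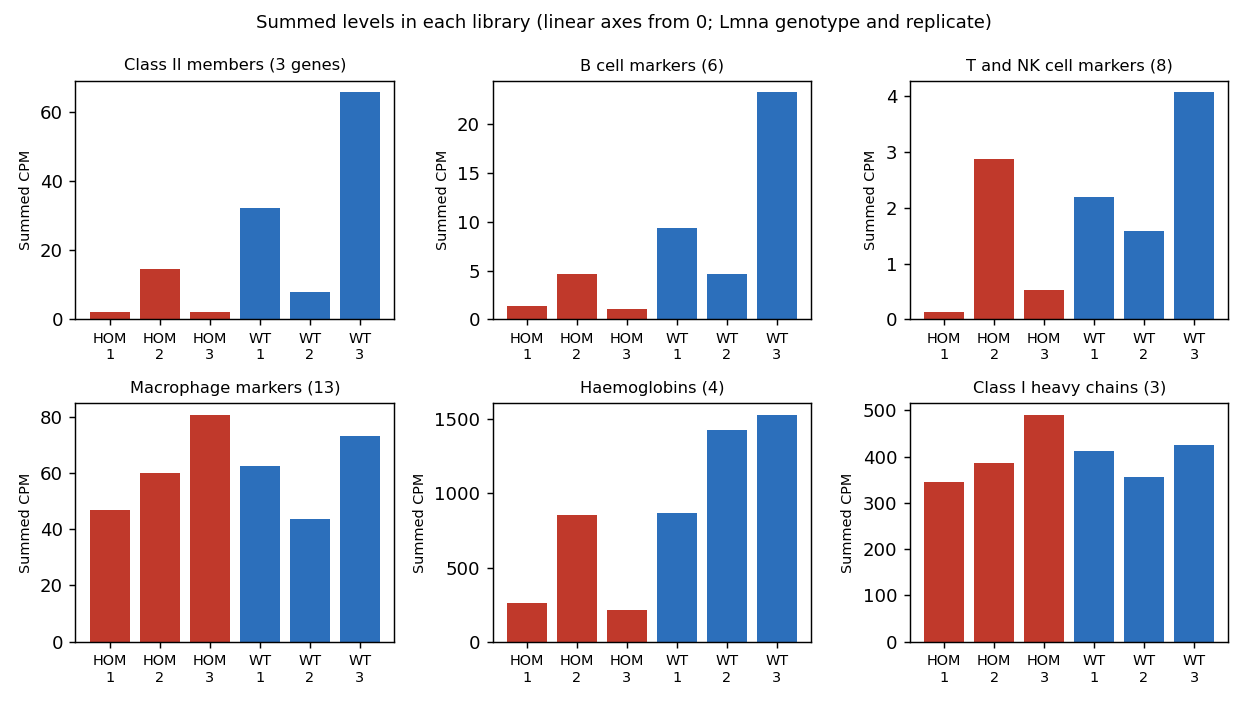
Summed CPM per library (linear axes from 0) of the class II members, B cell markers, T and NK cell markers, macrophage markers, haemoglobins and class I heavy chain members, with Lmna HOM bars left of Lmna WT bars. Lmna WT replicate 3 is the highest library in the class II, B cell, T and NK cell and haemoglobin panels, at 65.5, 23.2, 4.06 and 1530 CPM. The heavy chains lie between 345 and 490 CPM in all libraries.

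Of 16 other class I heavy chains listed, 13 matched a gene and 5 were tested. Of the 5, 0 were higher and 1 lower, where 9.67% of all genes tested were higher and 11.5% lower. Of these 5, 4 had log2 fold changes below 0, and the median was -0.07. H2-Q4, a nonclassical chain that shares 36.4% of its 50-base stretches with other genes and is therefore uncertain, was at 79.9, 87.7 and 101 CPM in Lmna HOM, against 86.4, 77.7 and 118 CPM in Lmna WT, and overlapped fully (adjusted p = 0.786). H2-M3, which presents formylated peptides, was lower at 0.699, 2.76 and 0.916 CPM in Lmna HOM, against 4.98, 4.29 and 3.94 CPM in Lmna WT (log2 fold change -1.52, SE 0.43, adjusted p = 0.0319). It passed at -2.42 without Lmna HOM replicate 2 and did not pass without any other library (adjusted p = 0.0659 to 0.109). Of the class I-like molecules, 1 of 5 tested was lower, Procr, the endothelial protein C receptor, whose fold is that of a class I chain but which presents no peptide (log2 fold change -0.63, SE 0.19, adjusted p = 0.0381). Procr did not pass without Lmna HOM replicate 1 (adjusted p = 0.109), Lmna WT replicate 1 (0.0656), Lmna WT replicate 2 (0.130) or Lmna WT replicate 3 (0.0722).

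In the list of class I peptide loading and trimming genes, 1 of 12 rose and 1 fell, where 9.67% of all genes rose and 11.5% fell, with a median log2 fold change of -0.16. Npepps, a cytosolic aminopeptidase, rose to 78.4 ± 3.75 CPM in Lmna HOM, against 53.8 ± 6.92 CPM in Lmna WT (SD, n = 3; log2 fold change 0.54, SE 0.12, edgeR adjusted p = 0.0125), and did not pass without Lmna WT replicate 1 (adjusted p = 0.0527). Erap1, the aminopeptidase that trims peptides in the endoplasmic reticulum, fell to 33.4 ± 3.75 CPM in Lmna HOM, against 44.3 ± 1.99 CPM in Lmna WT (log2 fold change -0.41, SE 0.12, edgeR adjusted p = 0.0427). Erap1 passed without Lmna HOM replicate 2 and not without any other library (adjusted p = 0.0687 to 0.160). Of 6 genes of the immunoproteasome, the form of the proteasome induced by interferon, and its activator, 0 rose and 1 fell. Psmb8 and Psmb9, catalytic subunits encoded beside Tap1, were at 7.57 ± 1.61 and 3.12 ± 0.902 CPM in Lmna HOM, against 7.73 ± 1.42 and 2.83 ± 1.52 CPM in Lmna WT, with edgeR adjusted p-values of 0.919 and 0.862. Psme1, an activator subunit, was lower (log2 fold change -0.38, SE 0.12, adjusted p = 0.0407), and its call was kept without Lmna HOM replicate 2 and lost without any other library (adjusted p = 0.0743 to 0.126).

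Of 13 endosomal processing genes tested, 3 rose and 1 fell, where 9.67% of all genes rose and 11.5% fell, with a median log2 fold change of 0.088. Ifi30, the lysosomal thiol reductase GILT that opens disulphide bonds of antigens, was at 80.6, 34.7 and 52.5 CPM in Lmna HOM, against 21.2, 19.1 and 18.2 CPM in Lmna WT. Each Lmna HOM library lay above each Lmna WT library, as for 20.2% of all genes tested (log2 fold change 1.51, SE 0.26, adjusted p = 0.0041), opposite in direction to the class II chains. Cst3, the cathepsin inhibitor cystatin C, rose (log2 fold change 0.75, SE 0.15, adjusted p = 0.0080), and so did Ctsl, or cathepsin L (0.59, SE 0.15, adjusted p = 0.0223). Ctsz, or cathepsin Z, fell (-0.77, SE 0.17, adjusted p = 0.0104). Ifi30, Cst3 and Ctsz passed in each fit that left out 1 library, whereas Ctsl did not pass without Lmna HOM replicate 1 (adjusted p = 0.0718) or any 1 Lmna WT replicate (0.0559 to 0.0793). Macrophages also make these proteins. Of the 10 macrophage markers tested, Cd68 (19.4, 9.22 and 15.97 CPM in Lmna HOM, against 5.21, 3.50 and 7.24 CPM in Lmna WT) and Cd14 were higher, and 6 of the 10 lay below 0 on the log2 scale. The part of macrophage RNA in these changes was not tested.

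Of the transcription factors that act on MHC promoters, 0 of 13 tested rose and 2 fell, where 9.67% of all genes rose and 11.5% fell. The number that rose was 2 without Lmna HOM replicate 2 and without both libraries high in Gm42418, and 1 without Lmna WT replicate 3. The number that fell was 1 without Lmna HOM replicate 1, Lmna HOM replicate 3, Lmna WT replicate 2 or Lmna WT replicate 3. Nlrc5, the activator of class I genes, was at 9.65, 4.98 and 13.6 CPM in Lmna HOM, against 3.36, 4.29 and 5.84 CPM in Lmna WT. Lmna HOM replicate 2 lay within the Lmna WT range, and the difference did not pass (log2 fold change 1.05, SE 0.36, adjusted p = 0.0626). Ciita, the activator of class II genes, had 0, 4 and 2 reads in Lmna HOM, against 6, 0 and 23 reads in Lmna WT, too few to test, where 3 reads correspond to 0.318 to 0.477 CPM. Rfx5, the DNA-binding subunit of the RFX complex on the X box, fell to 11.2, 10.9 and 9.69 CPM in Lmna HOM, against 18.3, 21.1 and 22.98 CPM in Lmna WT (log2 fold change -0.97, SE 0.16, adjusted p = 0.00335). Leaving out any 1 library kept this call. Nfkb1, the NF-kappaB p50 precursor, was lower (log2 fold change -0.47, SE 0.13, adjusted p = 0.0334) but not without Lmna HOM replicate 1 (adjusted p = 0.108), Lmna HOM replicate 3 (0.114), Lmna WT replicate 2 (0.0504) or Lmna WT replicate 3 (0.0981). Irf1, an interferon-induced activator of class I genes, was abundant, at 631 ± 41.8 CPM in Lmna HOM and 536 ± 22.1 CPM in Lmna WT, and did not pass (adjusted p = 0.201).

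Interferon signalling was examined because it induces both pathways. Of 16 ligands, receptors and signalling genes tested, 4 rose and 0 fell, where 9.67% of all genes rose and 11.5% fell, with a median log2 fold change of 0.31. Leaving out 1 library gave 0 higher genes (without Lmna HOM replicate 3 or Lmna WT replicate 1), 1 (without Lmna HOM replicate 1 or Lmna WT replicate 2), 4 (without Lmna WT replicate 3) or 6 (without Lmna HOM replicate 2), and a covariate for Y-linked reads gave 2. Ifng had 0 reads in all Lmna HOM libraries and 2, 1 and 0 in Lmna WT, too few to test. Socs3, a feedback inhibitor of cytokine receptors, rose by 0.54 on the log2 scale (SE 0.13, adjusted p = 0.0148), but missed the threshold without Lmna HOM replicate 3 (adjusted p = 0.0609) or Lmna WT replicate 1 (0.0631). Stat2, Irf7 and Irf9, transcription factors of the type I interferon response, rose by 0.72, 0.67 and 0.62 on the log2 scale (adjusted p = 0.0233, 0.0319 and 0.0407), and each was lost without Lmna HOM replicate 1, Lmna HOM replicate 3, Lmna WT replicate 1 or Lmna WT replicate 2 (adjusted p = 0.0619 to 0.148). Of 33 interferon-responsive genes tested, 7 rose and 2 fell, with a median log2 fold change of 0.14, to be read against the same shares of all genes. Leaving out 1 library gave 9 higher genes without Lmna HOM replicate 2, 5 without Lmna WT replicate 3 and 2 without any other, and the covariate for Y-linked reads gave 2 higher and 1 lower. Isg15, a ubiquitin-like modifier, and Ifit3, which takes part in antiviral RNA binding, rose by 1.28 (SE 0.19, adjusted p = 0.0022) and 0.96 (SE 0.22, adjusted p = 0.0131), whereas Cxcl10, a chemokine for T cells, fell by 0.62 (adjusted p = 0.0154), and these 3 passed in each fit without 1 library. Samhd1, a nucleotide-cleaving restriction factor, was higher (0.49, adjusted p = 0.0255), but was lost without any 1 library other than Lmna HOM replicate 2 (0.0544 to 0.0728).

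Of 10 co-stimulators and checkpoint ligands, 5 were tested, of which 1 rose and 0 fell. Tnfsf9, the ligand 4-1BBL that co-stimulates T cells, was at 46.6, 45.6 and 44.2 CPM in Lmna HOM, against 23.3, 26.5 and 31.4 CPM in Lmna WT (log2 fold change 0.75, SE 0.13, edgeR adjusted p = 0.0051). Each Lmna HOM library lay above each Lmna WT library, as for 20.2% of all genes tested, and Tnfsf9 passed in each fit without 1 library. Cd80 and Cd86, the classical co-stimulators of antigen-presenting cells, had 5 and 22 reads over the Lmna HOM libraries and 6 and 15 over the Lmna WT libraries. Over the 10 lists of genes around the members, 16 of 111 genes tested were higher and 10 lower, shares to be read against the 9.67 and 11.5% of all genes. Leaving out 1 library gave 5 higher genes (without Lmna WT replicate 1) to 22 (without Lmna HOM replicate 2) and 3 lower (without Lmna HOM replicate 1) to 14 (without Lmna HOM replicate 2), and the covariate for Y-linked reads gave 8 higher and 6 lower.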

How the data were processed

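For each library of sorted satellite cells, the authors deposited 1 table of unnormalized counts by Ensembl gene, closed by lines that sum unassigned reads. Per the labels' protocols, a strand-keeping total RNA kit was used after removal of ribosomal RNA. Per the submitters' processing notes, the tools were Trimmomatic 0.32, STAR 2.5.2b and HTSeq 0.6.1, with genome mm10. No source used here gives their settings. The lines of unassigned reads, 45.0 to 49.8% of all reads in a file, were left out of totals and tests. Reads with more than 1 alignment were 19.7 to 24.0% of all reads, which bears on genes with near-identical copies.

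GENCODE release M21 (GRCm38, the assembly of mm10) gave symbols and positions for 38861 of 39059 genes. The test was run with edgeR 4.0.16 (R 4.3.3): filterByExpr (minimum count 10, minimum total 15), TMM factors, the quasi-likelihood test without covariates and Benjamini-Hochberg adjustment over 14099 genes, with 5056 at an unadjusted p under 0.05. Replicates varied with a common biological coefficient of 0.162. Each SE is the size of the log2 fold change divided by the square root of F, and intervals of 95% use its t quantile and are unadjusted. The test was tested on simulated counts with known changes. No libraries of a genotype agreed within sampling noise (chi-square of 9.34 to 25.6 per gene). Motifs were searched in Python 3.11.15. Counts carry no molecular identifiers, so limits from 3 reads cover counting error only.

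Members and lists were chosen with earlier results of these data known. Named are all members, up to 4 called genes per list by lowest p (2 by abundance where none was called), and Nlrc5, Ciita, Psmb8, Psmb9 and Irf1. Single values of some listed genes are not reported here. Others, such as H2-Eb1, H2-DMa, H2-Q4, Cd80 and Cd86, were chosen after their values were seen. Alternatives were DESeq2 size factors, library totals, the DESeq2 1.42.0 Wald test, other filters, a 1.5-fold threshold test, a replicate block, a covariate for libraries with Y-linked reads, and leaving out libraries.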

Additional observations from a re-analysis of the deposited data

How the results depend on the processing

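The number of genes called, 2980, was 533 in a test against a fold change of 1.5 and 1932 with a covariate for Y-linked reads, and ran from 1576 to 4002 when 1 library was left out. The number of members called higher, 0, became 1 without Lmna HOM replicate 2 (Tap1) and stayed 0 without any other library. The number called lower, 1, was 0 with the DESeq2 Wald test and in the test against a fold change of 1.5, 3 with no filter on low counts and without both libraries high in Gm42418, and 0 to 3 when 1 library was left out. The cause of these shifts was not tested. H2-D1 ran from -0.018, without Lmna HOM replicate 3, to 0.21, without Lmna HOM replicate 1, and no other member changed sign under any of the 15 alternatives. Libraries share only a replicate number: deviations from the genotype means correlated at -0.050, 0.018 and -0.10 for numbers 1, 2 and 3. With a replicate block, 2437 genes and 1 member were called, H2-Ab1 at -2.77 (adjusted p = 0.0416). Across alternatives the adjusted p of H2-Ab1 ran from 2.8e-16, with no filter, to 0.0939, and it was called in 9 of 15. Counts of 2 to 112 reads per library limit H2-Ab1, and totals of 28 reads in Lmna HOM and 193 in Lmna WT stand behind its fold change.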
